A study of Mus musculus with 4 samples.

Results

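Insulin and insulin-like growth factor (IGF) signalling was followed through 8 genes of the 32285 in the count matrices, named by a fixed list. They were the ligand Igf1, the receptors Insr and Igf1r, the adaptors Irs1, Irs2 and Irs4, and the binding proteins Igfbp2 and Igfbp5. All 8 were found. Their unique molecular identifiers (UMIs, each standing for 1 captured transcript) were summed per library over each main cluster and sub-cluster that the authors had annotated.

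Insulin and IGF1 bind the related tyrosine kinase receptors encoded by Insr and Igf1r. The activated receptor phosphorylates insulin receptor substrate (IRS) proteins, which recruit PI3 kinase and so activate AKT, restraining FOXO transcription factors and raising mTOR activity. In the hypothalamus this pathway is best known from AgRP and POMC neurons of the arcuate nucleus, where insulin takes part in the control of feeding and glucose production. IGF binding proteins hold IGFs outside the cell and set how much of them reaches the receptor.

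Nuclei were sequenced singly from the hypothalamus of adult male mice, wild type or heterozygous for a point mutation of the thyroid hormone receptor TRα1 that lowers its affinity for the hormone (TRα1+m). The mutation is present in the whole body and from conception, so that effects in development and in the adult cannot be told apart. Each library pooled nuclei of 3 mice of one genotype, and both genotypes were prepared once in each of 2 experimental repeats, which gives n = 2 pools per genotype. The annotated nuclei numbered 14652 and 13323 in the wild-type repeats 1 and 2 and 16435 and 11976 in the TRα1+m repeats, with medians of 2904.0 to 4018.0 UMIs, and any pair of libraries shared 44 to 64 cell barcodes.

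Levels are CPM, the share of a gene in the UMIs of the summed cluster, scaled to 1000000, as mean ± SD over the 4 libraries unless a genotype is named. Since introns were counted, longer genes gather more UMIs, so levels were compared between cell types and not between genes. Differences in level between cell types are given as a description. Comparable values exist for 5 main clusters and 14 sub-clusters, in which no library had fewer than 10 nuclei and which form 17 non-overlapping cell types. Neurons_2 and the sub-clusters named VLMC, #11 and CART Neurons_2 did not reach that number and were not tested. The cluster named Non-neuronal cells (34 to 80 nuclei per library) did reach it. It was not tested because the authors had set it aside.

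Some annotated labels covered nuclei of other types, and this touches the values below. Of the 2085 nuclei of the sub-cluster named MCH Neurons, 505 held at least 2 endothelial or mural genes (59 of 473 and 146 of 719 in the wild type, 206 of 543 and 94 of 350 in TRα1+m). Nuclei were not thinned for these classes, so the counts depend on depth. The median depth of this sub-cluster was 1855.0 and 1481.0 UMIs in the wild type and 3840.0 and 1499.0 in TRα1+m. Among the 1779 nuclei of the microglia and macrophage cluster, 1221 held at least 2 microglial genes and 136 at least 2 fibroblast genes (27 of 412 and 44 of 468 in the wild type, 31 of 507 and 34 of 392 in TRα1+m). Levels with and without such nuclei are given for Igf1, Igfbp2 and Igfbp5 in the microglia and macrophage cluster. The same is given for Insr and Igf1r in the MCH sub-cluster. Other levels in these clusters are those of all nuclei unless stated.

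The 3 adaptor genes share a stretch of promoter sequence. RefSeq windows on GRCm38.p6, from 250 bases before to 50 bases after a transcription start, were at hand for 7 of the 8 genes (8 windows, of which 2 belong to Igfbp2) and not for Insr. In those of Irs1, Irs2 and Irs4 the letters GTCACGTGTT, which hold the E-box CACGTG, run into TGTTTTGC, and 30 bases around them are shown because they are the feature in common, with the letters from the start of the first run to the end of the second in capitals.
Irs1, chr1:82291535-82291564, minus strand: gaggctccGTCACGTGTTTTGCtcctctgg
Irs2, chr8:11008952-11008981, minus strand: cgcagaGTCACGTGTTGTTTTGCtcttagt
Irs4, chrX:141725350-141725379, minus strand: gcgacgGTCACGTGTTGTTTTGCccactgc
The second run began 6 bases after the start of the first in Irs1, and 9 bases after it in Irs2 and Irs4, so that the runs overlap in each. The capitals began 117, 46 and 156 bases before the RefSeq start of Irs1, Irs2 and Irs4. Searched on both strands of all 32851 windows, GTCACGTGTT was found in 25 (0.0761%) and TGTTTTGC in 450 (1.37%), and both, with the second beginning at most 10 bases after the start of the first, in 3 windows, those of the 3 adaptors. They are 2 of the 4 runs of at least 8 bases that these 3 windows share, picked because they overlap, so the count describes them and tests nothing. CACGTG alone was in 7.15% of windows, including 1 of Igfbp2. The textbook thyroid hormone response element, a pair of AGGTCA half-sites in the same direction 4 bases apart, was in none of the 8 windows and in 0.0152% of all.

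Igf1 (ENSMUSG00000020053, chr10:87858265-87937042, plus strand), the secreted ligand of Igf1r, was a transcript of few neurons. Of its 2466 UMIs, 2285 (92.7%) fell in the cluster Neurons_1, which held 80.2% of all UMIs. Its level over that whole cluster was 13.3 ± 1.45 CPM. The sub-cluster Glutamatergic Neurons_1 alone held 44.2% of all Igf1 UMIs but 14.8% of all UMIs. There Igf1 stood at 37.9 and 42.1 CPM in the wild type and 27.5 and 30.3 in TRα1+m. The sub-cluster Glutamatergic Neurons_3 followed at 24.5 ± 6.09 CPM, the GABA neurons stood at 7.22 ± 1.12 and the NPY/AgRP neurons at 1.30 ± 0.98. Nuclei with 5 or more Igf1 UMIs numbered 54 of 6222 in Glutamatergic Neurons_1 (median depth 4574.5 UMIs), 12 of 2956 in Glutamatergic Neurons_3 and 7 of 15042 among the GABA neurons (4180.0 UMIs), so within the richest sub-cluster a small set of nuclei carried 33.9% of the Igf1 UMIs.

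Among non-neuronal cells Igf1 was highest in the microglia and macrophage cluster, at 12.5 and 18.6 CPM in the wild type and 16.96 and 55.1 in TRα1+m. The high value came from 1 library and 34 UMIs. In the 1203 nuclei of that cluster with microglial genes and no other list, Igf1 stood at 10.8 ± 3.85 CPM and at 8.03 in that same library. Oligodendrocytes and their progenitors (OPCs) were at 2.45 ± 0.734 and 1.87 ± 1.42 CPM.

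Insr (ENSMUSG00000005534, chr8:3122061-3279617, minus strand), the insulin receptor, was the most evenly spread of the 8. Its mean level ran from 95.9 CPM in Orexin+ neurons to 172 in the MCH sub-cluster, a ratio of 1.80. All 16 pairs of neighbours in the order of the 17 cell types overlapped between libraries, as also for Irs1, Irs4 and Igfbp5. Without nuclei holding vascular genes, the MCH sub-cluster stood at 96.8 ± 25.4 CPM, within the range of the other neurons, whereas its nuclei with vascular genes held 348 ± 61.2. AgRP neurons (116 ± 11.97 CPM) and POMC/CART neurons (116 ± 11.1) did not stand apart from the GABA neurons (114 ± 0.780).

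Igf1r (ENSMUSG00000005533, chr7:67952827-68233668, plus strand), the IGF1 receptor, showed a stronger order. In the MCH sub-cluster it stood at 375 and 704 CPM in the wild type and 866 and 1041 in TRα1+m, above every other cell type in each library. Nearly all of this lay in the nuclei with endothelial or mural genes, which held 83.4% of the Igf1r UMIs of the sub-cluster, at 2106 ± 494 CPM against 163 ± 52.5 without them. Leaving those nuclei aside, Igf1r was highest in astrocytes (294 ± 29.9 CPM) and tanycytes (281 ± 18.3), the glia that line the third ventricle. Vasopressin neurons (227 ± 21.2) and oxytocin and vasopressin neurons (201 ± 18.2) stood highest among the other neurons. NPY/AgRP neurons were lowest, at 37.2 and 36.9 CPM in the wild type and 63.6 and 37.0 in TRα1+m, below the GABA neurons (140 ± 15.8 CPM) in all 4 libraries. In these AgRP neurons the receptors thus differed in their order, with Insr near the neuronal middle and Igf1r at the bottom.

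The adaptors were each highest in another cell type. Irs1 (ENSMUSG00000055980, chr1:82233101-82291416, minus strand), the first-described substrate, was highest in astrocytes at 76.1 and 70.1 CPM in the wild type and 67.6 and 43.1 in TRα1+m, with tanycytes next at 58.8 ± 11.9 and Orexin+ neurons lowest at 20.6 ± 9.68. All neighbours in its order overlapped.

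Irs2 (ENSMUSG00000038894, chr8:10984681-11008458, minus strand), the substrate whose loss in mice leads to diabetes, was highest in oligodendrocytes at 52.5 and 57.5 CPM in the wild type and 38.1 and 43.6 in TRα1+m. The microglia and macrophage cluster followed at 38.1 ± 6.63 CPM, and Irs2 was higher in oligodendrocytes in 4 of 4 libraries although the ranges overlapped. Among neurons the NPY/AgRP (30.5 ± 5.64) and POMC/CART sub-clusters (29.6 ± 5.51) were highest as annotated, next to the MCH sub-cluster without nuclei holding vascular genes (30.7 ± 9.46). Orexin+ (28.6 ± 5.43) and vasopressin neurons (28.5 ± 5.52) lay close below with overlapping ranges, so the arcuate sub-clusters did not stand apart. The oxytocin and vasopressin neurons were lowest (8.13 ± 2.73).

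Irs4 (ENSMUSG00000054667, chrX:141710998-141725263, minus strand), a substrate with a narrow tissue range that includes the hypothalamus, was highest in NPY/AgRP neurons. It stood there at 54.9 and 78.4 CPM in the wild type and 40.9 and 56.4 in TRα1+m, followed by POMC/CART neurons at 34.6 and 51.3 CPM in the wild type and 36.1 and 41.8 in TRα1+m. Oligodendrocytes came next at 26.2 ± 6.16 CPM, in a range that overlapped that of POMC/CART neurons. The microglia and macrophage cluster stood at 24.2 ± 6.66. Both arcuate populations exceeded the GABA neurons (16.2 ± 2.21 CPM) in every library. The 2 sub-clusters held 4.08% and 4.03% of the Irs4 UMIs against 1.14% and 1.62% of all UMIs, so that most Irs4 transcripts still came from other neurons.

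Igfbp2 (ENSMUSG00000039323, chr1:72824503-72852474, plus strand), a secreted IGF binding protein, was rare, with 962 UMIs in all. Of these, 318 lay in the microglia and macrophage cluster, where it stood at 78.3 and 110 CPM in the wild type and 76.98 and 186 in TRα1+m. The nuclei with at least 2 fibroblast genes but fewer than 2 microglial ones (130 nuclei) held 919 ± 406 CPM, while the 1203 nuclei with microglial genes only held 2.71 ± 2.16. A single nucleus held 43 of these UMIs. Tanycytes came next, at 12.4 ± 9.05 CPM.

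Igfbp5 (ENSMUSG00000026185, chr1:72857932-72874884, minus strand), a secreted binding protein that also attaches to extracellular matrix, was highest in tanycytes, at 133 and 271 CPM in the wild type and 180 and 362 in TRα1+m. Vasopressin neurons followed at 199 ± 56.1 CPM, above every other neuronal sub-cluster in each library. The microglia and macrophage cluster stood at 199 ± 82.6, of which the nuclei with fibroblast genes held 923 ± 464 and those with microglial genes 45.2 ± 20.0. Another 279 nuclei there held fewer than 2 genes of each of the vascular, fibroblast and microglial lists. They carried 175 of the 585 Igfbp5 UMIs of the cluster (314 ± 179 CPM), against 282 in the nuclei with fibroblast genes. Astrocytes were at 103 ± 20.0 and Orexin+ neurons lowest at 14.1 ± 6.44.

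**Figure D1:**
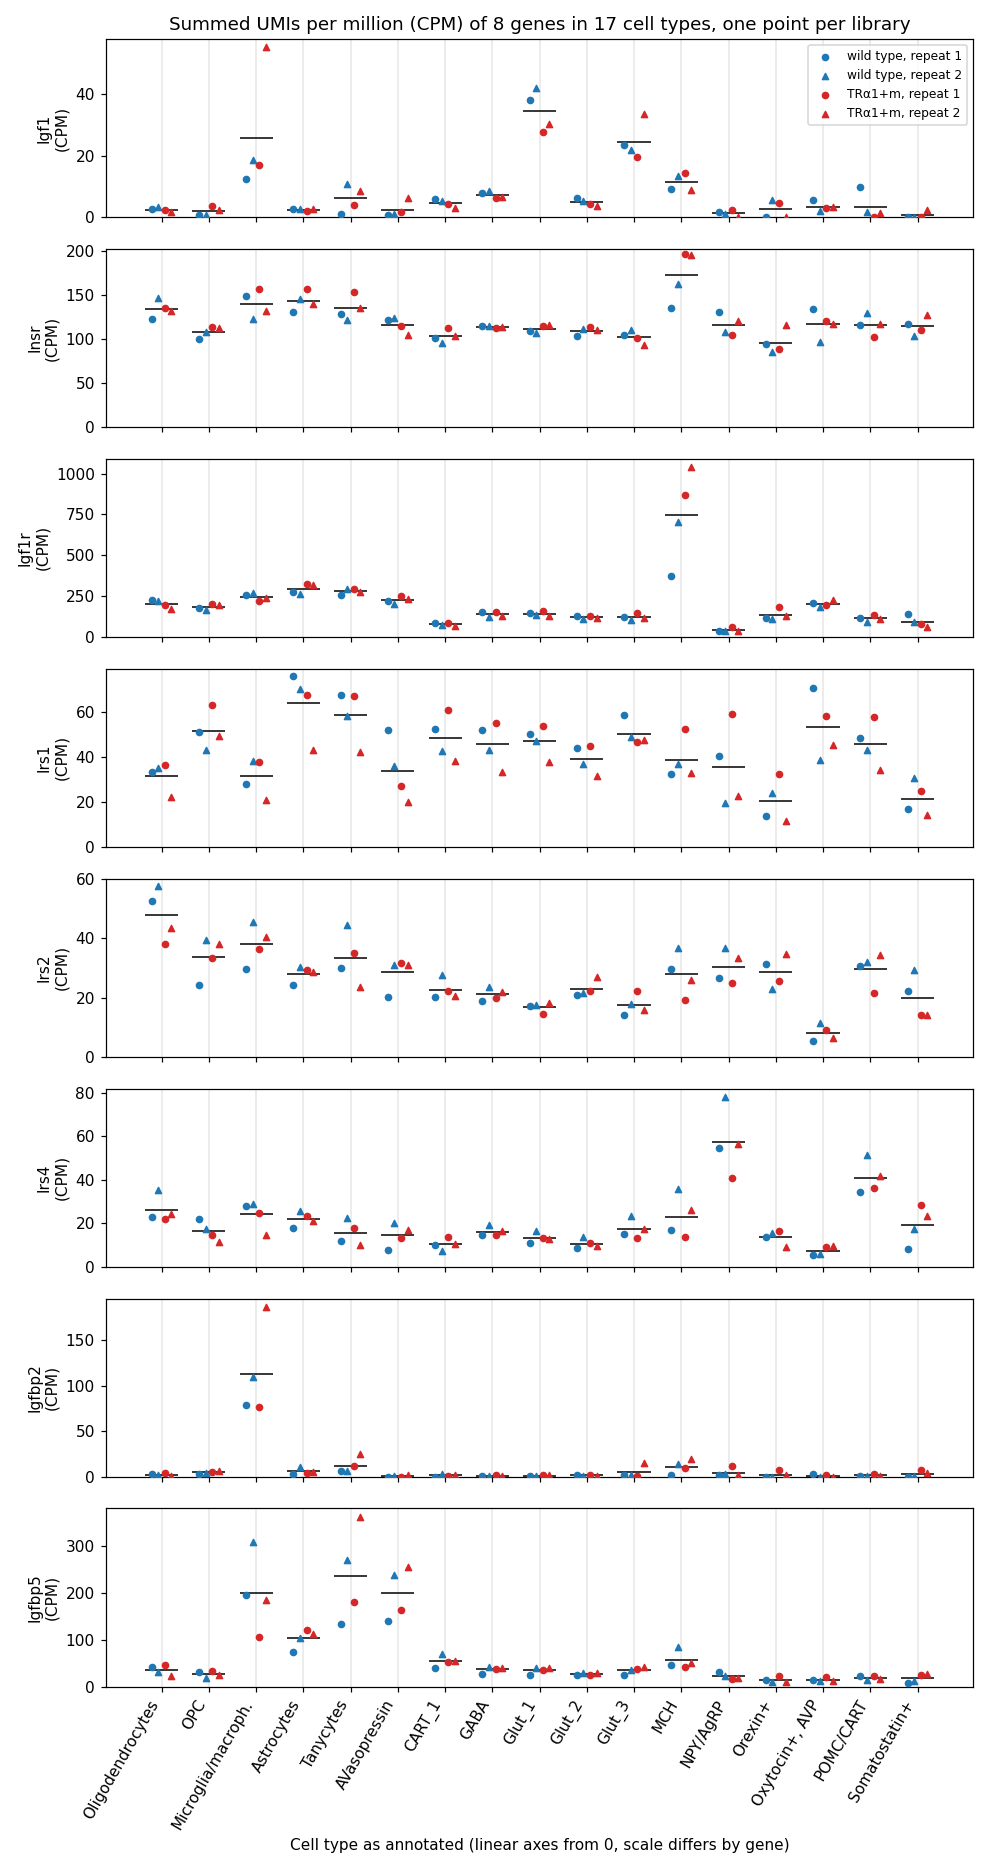
Level of each gene (CPM of summed UMIs, linear axes from 0 that differ by gene) in the 17 cell types, with a point per library (circles repeat 1, triangles repeat 2, blue wild type, red TRα1+m) and a line at the mean of the 4. Igf1 peaked in Glutamatergic Neurons_1 (34.5 CPM), Igf1r in the MCH sub-cluster (746), Irs4 in NPY/AgRP neurons (57.6) and Igfbp5 in tanycytes (236), while Insr was nearly flat.

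**Figure D2:**
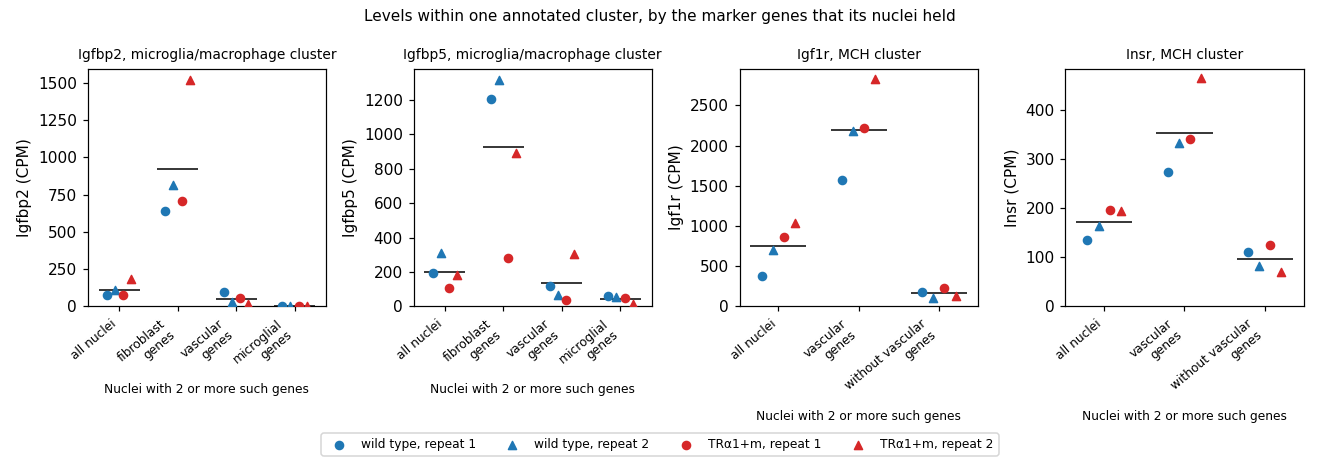
Levels (CPM, linear axes from 0) of Igfbp2 and Igfbp5 in the microglia and macrophage cluster and of Igf1r and Insr in the MCH sub-cluster, over all nuclei and over classes of nuclei named below the axis (fibroblast: at least 2 fibroblast and fewer than 2 microglial genes; vascular or microglial: at least 2 genes of that list and of no other), with a point per library and a line at the mean. Of the classes shown, Igfbp2 and Igfbp5 were highest in nuclei with fibroblast genes (919 and 923 CPM), and Igf1r and Insr in those with vascular genes (2199 and 352 CPM).

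Across the 17 cell types, Pearson's correlation of log2(CPM + 1) was 0.75 between Insr and Igf1r, 0.58 between Irs2 and Irs4 and −0.24 between Irs1 and Irs2. These points share libraries and differ in depth and in the nuclei named above. Among 11542 genes, those most like Igf1 were Ebf2 (r = 0.85), Tspan18 (0.83) and 4930438E09Rik (0.82). Igf1r was most like Cavin1, a caveolar coat gene (0.86), Flvcr2 (0.84) and Nes (0.83), and Insr most like Hbb-bs (0.92), Gsta4 (0.91) and Ifitm3 (0.90). These likenesses, and the 0.75 between the receptors, took the MCH sub-cluster as annotated. Nuclei with vascular genes held 83.4% of its Igf1r and 58.0% of its Insr UMIs. Igfbp5 ranked closest to Hlf (0.92), Coq10b (0.91) and Tef (0.88), of which Hlf and Tef encode PAR bZIP factors. Igfbp2 ranked closest to Cmtm6 (0.95), Dock8 (0.95) and 5430427O19Rik (0.92). This took the microglia and macrophage cluster as a whole, in which nuclei with fibroblast genes held 89.6% of the Igfbp2 UMIs. For the adaptors the closest were Igdcc3 (0.83), Ddah1 (0.83) and Txndc15 (0.82) for Irs1, Itpa (0.89), Hpf1 (0.85) and Rbmxl1 (0.85) for Irs2, and Ptrh2 (0.85), Carm1 (0.79) and Dctn6 (0.78) for Irs4.

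The comparison of TRα1+m with wild type asked whether the mutant receptor altered these genes in any cell type. None of the 8 passed the test in any cluster when the repeat was left out of the fit, while with the repeat as a block 3 pairs were called, Igf1r in the MCH sub-cluster, Igfbp2 in astrocytes and Igfbp5 in the microglia and macrophage cluster, as given below. In the main clusters 36 of 40 pairs of gene and cluster passed the filter on low counts, 0 were called at an adjusted p of 0.05 by edgeR's quasi-likelihood test and 0 by DESeq2, and 1 had an unadjusted p below 0.05. Over all genes tested in these clusters, 0.0188% were called and 2.22% had an unadjusted p below 0.05. In the 14 sub-clusters 87 of 112 pairs passed the filter, again with 0 calls in both tools and 3 unadjusted p below 0.05, against 0.0031% and 1.72% of all genes. The adjusted p of the members was 0.999 or above throughout. With 2 pools per genotype an exact permutation test cannot go below 0.333. The fit rests on few residual degrees of freedom (2 without the block and 1 with it). Without the block, differences between the repeats also stay in its residual spread. Differences could thus be missed, and the lack of a call does not show that a gene was unchanged.

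The 2 genotypes did not overlap in 13 of the 36 pairs in main clusters, against 26.2% of all genes there, and in 29 of 87 in sub-clusters, against 26.0%. The median log2 difference of the members was 0.01 in the main clusters, like that of all genes (0.01).

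The pairs with the smallest unadjusted p are given by gene as the nearest to a difference, none of which passed the test on all 4 libraries without the block. For Igf1 this was Glutamatergic Neurons_1, its richest sub-cluster, where both TRα1+m libraries lay below both wild-type ones (log2 difference −0.52 ± 0.17 SE; −0.51 and −0.53 within repeats 1 and 2). In the microglia and macrophage cluster Igf1 differed by 1.13 ± 0.58 with overlapping groups, and without the TRα1+m library of repeat 1 this was called in edgeR (1.77, adjusted p = 0.0493), when it rested on the library at 55.1 CPM alone.

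The receptor gene Insr differed by 0.14 ± 0.14 in astrocytes and by 0.36 ± 0.27 in the MCH sub-cluster. Igf1r was at 273 and 268 CPM in wild-type and 318 and 303 in TRα1+m astrocytes (0.21 ± 0.13). In Somatostatin+ neurons it was at 139 and 91.8 CPM in the wild type and 81.4 and 61.1 in TRα1+m (−0.73 ± 0.34).

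Igf1r in the MCH sub-cluster, named here after its values were seen, was higher in both TRα1+m libraries (0.79 ± 0.37, adjusted p = 1.00 in edgeR) and was called when the repeat entered the fit as a block (0.85, adjusted p = 0.000231 in edgeR, where 0.896% of all genes were called). Nuclei with vascular genes made up 14.0% and 32.4% of the UMIs of this sub-cluster in the wild type and 33.3% and 34.5% in TRα1+m. Without nuclei holding at least 2 vascular or at least 2 fibroblast genes the difference was 0.30 without the block and 0.28 with it. It was not called with the block (adjusted p = 0.567 in edgeR) or without it. The 90 nuclei of this sub-cluster with microglial genes only stayed in. Within the nuclei holding vascular genes Igf1r stood at 1579 and 1942 CPM in the wild type and 2143 and 2758 in TRα1+m. It was higher in TRα1+m in both repeats. In repeat 2 these nuclei were 20.3% of the nuclei in the wild type and 26.9% in TRα1+m, and 32.4% and 34.5% of the UMIs. What the share, the level within these nuclei and the depth of the libraries each contributed was not tested.

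Among the adaptors, Irs1 in vasopressin neurons was at 52.1 and 36.0 CPM in the wild type and 27.2 and 20.2 in TRα1+m (−0.89 ± 0.34). In astrocytes it differed by −0.36 ± 0.26. Irs2 in oligodendrocytes was lower in both TRα1+m libraries by −0.36 ± 0.20, and in the MCH sub-cluster by −0.62 ± 0.34. Irs4 in OPCs stood at 22.2 and 17.4 CPM in the wild type and 14.9 and 11.4 in TRα1+m (−0.62 ± 0.36), and in NPY/AgRP neurons the groups overlapped (−0.48 ± 0.33).

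Of the binding proteins, Igfbp5 in the microglia and macrophage cluster had the smallest p in a main cluster, with 196 and 308 CPM in the wild type and 107 and 185 in TRα1+m (−0.80 ± 0.32). With the repeat as a block it was called in edgeR (adjusted p = 0.0494, where 0.335% of all genes were). In nuclei with microglial genes only it differed by −0.71 without the block and by −0.80 with it. It was called in neither fit (adjusted p = 0.9997 with the block in edgeR). These nuclei held 25 and 27 Igfbp5 UMIs in the wild type (61.3 and 52.7 CPM) and 25 and 6 in TRα1+m (50.7 and 16.1 CPM). The size there thus leaned on the TRα1+m library of repeat 2. Nuclei with fibroblast genes stood at 1206 and 1316 CPM in the wild type and 282 and 888 in TRα1+m. In the sub-cluster of astrocytes proper Igfbp5 differed the other way (0.38 ± 0.19). These opposite signs were not compared by a test.

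Igfbp2 was at 6.44 and 5.91 CPM in wild-type and 12.03 and 25.4 in TRα1+m tanycytes (1.52 ± 0.58), on 39 UMIs in all 4 libraries. In Neurons_1 it stood at 1.21 and 1.79 CPM in the wild type and 2.28 and 3.31 in TRα1+m (0.83 ± 0.34). In the library at 3.31 CPM, 57 of the 118 UMIs lay in Glutamatergic Neurons_3, where a single nucleus held 16, against 4 to 11 UMIs of that sub-cluster in the other libraries. In the whole astrocyte cluster, named here after its values were seen, the block again gave a call in edgeR (1.04, adjusted p = 0.0217, with 1.28% of all genes called). That cluster includes 36 nuclei named VLMC from the TRα1+m library of repeat 2, and without that library the difference turned to −0.22. In the sub-cluster of astrocytes proper it was −0.50, with 3.35 and 10.6 CPM in the wild type and 4.61 and 5.32 in TRα1+m.

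**Figure D3:**
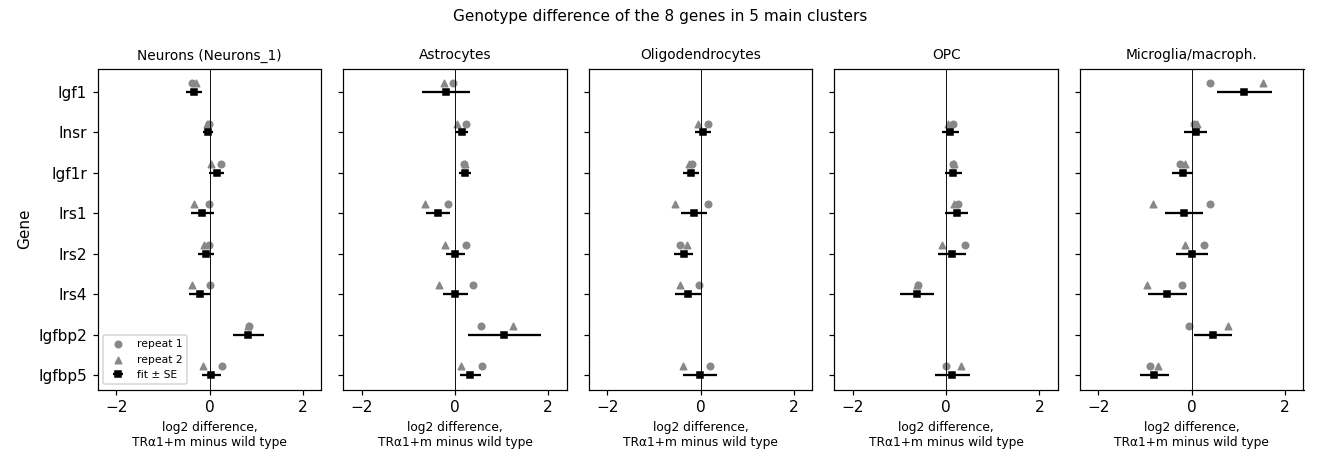
Fitted log2 difference of TRα1+m minus wild type (black squares, bars ± SE) and the plain log2 difference within repeat 1 (grey circles) and repeat 2 (grey triangles) for each gene that passed the filter in the 5 main clusters. No difference passed the adjusted test without the repeat in the fit. With the repeat as a block, Igfbp2 in astrocytes and Igfbp5 in the microglia and macrophage cluster were called. The widest differences were Igf1 in the microglia and macrophage cluster (1.13), Igfbp2 in astrocytes (1.06) and in Neurons_1 (0.83), and Igfbp5 in the microglia and macrophage cluster (−0.80).

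No further gene of the pathway passed the test either while the repeat was left out of the fit. With the repeat as a block some were called, of which Pik3r3 and Pik3cb are given below. Of 59 further genes fixed as ligands, receptors, adaptors, binding proteins, PI3 kinase subunits, AKT, FOXO and mTOR components and inhibitors, 226 of 295 pairs in main clusters and 552 of 826 in sub-clusters passed the filter, with 0 called by edgeR and 0 by DESeq2. Unadjusted p below 0.05 occurred for 5 and 10 of them, and the median log2 difference was −0.01 and 0.00.

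The nearest was Pik3r3, a regulatory subunit of PI3 kinase, in oligodendrocytes, the cluster with 13 of the 13 genes called in main clusters. It stood at 98.4 and 120 CPM in the wild type and 176 and 159 in TRα1+m (0.69 ± 0.17, adjusted p = 0.401 in edgeR). With the repeat as a block it was called in edgeR (adjusted p = 0.00102), where 4.35% of all genes of these cells were. In the other main clusters the smallest p belonged to Pik3cb, a catalytic subunit, in astrocytes (0.72), to Foxo1 in the microglia and macrophage cluster (0.59), to Pappa, a protease of IGF binding proteins, in OPCs (0.86), and to Eif4ebp1, a repressor of translation under mTOR, in Neurons_1 (0.91, at 0.451 to 1.04 CPM). Of these, Pik3cb was called with the block in edgeR (adjusted p = 0.0389).

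Whether the genotype acted differently on the members in oligodendrocytes than in another main cluster was tested directly. Of 31 comparisons 0 passed in edgeR, against 0.26% of all, and 2 had an unadjusted p below 0.05, both for Igf1r. The log2 difference of Igf1r was lower in oligodendrocytes than in astrocytes by −0.41 ± 0.15 (adjusted p = 0.621 in edgeR) and than in Neurons_1 by −0.38 ± 0.17. Its levels in oligodendrocytes were 226 and 222 CPM in the wild type and 197 and 174 in TRα1+m, and in Neurons_1 152 and 139 against 187 and 150. Without nuclei holding vascular genes, Igf1r in Neurons_1 stood at 144 and 117 CPM in the wild type and 154 and 123 in TRα1+m, and the difference from oligodendrocytes was −0.26 ± 0.18.

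The experimental repeats were compared as well. Between repeat 2 and repeat 1, with genotype in the fit, 8 of 36 pairs passed the edgeR test, 4 higher and 4 lower in repeat 2, against 16.8% of all genes. DESeq2 called 2 of the 36, Igfbp2 in astrocytes and Irs1 in Neurons_1.

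Igfbp2 was higher in repeat 2 in astrocytes (1.70 ± 0.27, adjusted p = 5.8e-07 in edgeR) and in the microglia and macrophage cluster (0.86 ± 0.23, 0.00608), and Igfbp5 in the same clusters (0.37 ± 0.12 and 0.67 ± 0.21). Of the 100 Igfbp2 UMIs of the astrocyte cluster in the TRα1+m library of repeat 2, 66 lay in the 36 nuclei named VLMC. In astrocytes proper Igfbp2 stood at 4.61 and 5.32 CPM in repeats 1 and 2 of TRα1+m, and at 3.35 and 10.6 in the wild type. Igfbp5 was lower in repeat 2 in oligodendrocytes, at 41.7 and 47.3 CPM in repeat 1 and 32.1 and 23.0 in repeat 2 (−0.71 ± 0.20, adjusted p = 0.00964 in edgeR). Irs1 was lower in Neurons_1 (−0.45 ± 0.10) and astrocytes (−0.42 ± 0.14), and Igf1r in Neurons_1 (−0.26 ± 0.07). Without nuclei holding vascular genes Igf1r in Neurons_1 was again called (−0.34 ± 0.07), and Igfbp5 in the microglia and macrophage cluster was not. The repeats are whole preparations, so mice, dissection, nuclei and sequencing cannot be told apart in them. In the microglia and macrophage cluster, nuclei with at least 2 fibroblast genes also differed between the repeats (27 of 412 and 31 of 507 in repeat 1, 44 of 468 and 34 of 392 in repeat 2), as did the summed level of the microglial markers (3430 and 2904 CPM in repeat 1, 7357 and 9088 in repeat 2), and their part in these values was not tested.

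**Figure D4:**
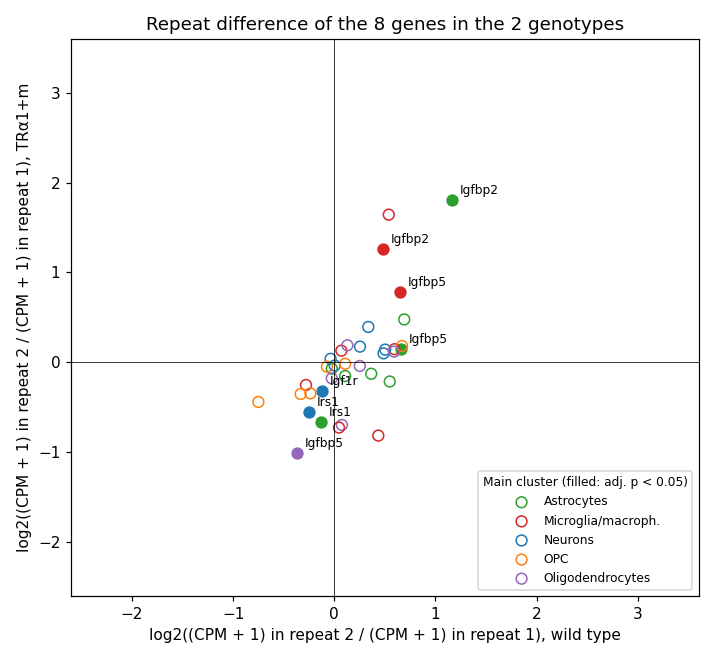
Log2 ratio of CPM + 1 in repeat 2 to repeat 1, in the wild type (horizontal) and in TRα1+m (vertical), for each gene and main cluster that passed the filter, with filled points called at an adjusted p of 0.05. Of the 8 filled points, Igfbp2 in astrocytes lies the farthest out.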

How the data were processed

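The authors aligned reads with Cell Ranger 5.0.1 on an mm10 reference (GRCm38), introns included, and deposited raw UMI counts per barcode. They filtered nuclei, removed predicted doublets and annotated clusters in Seurat. Their annotation was joined by barcode, and all annotated nuclei matched. Here counts were summed per library and cluster.

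Fits ran over all genes of a cluster in edgeR 4.0.16 (R 4.3.3): filterByExpr, TMM factors, the robust quasi-likelihood test, two-sided, with Benjamini-Hochberg adjustment within a cluster at 0.05. No block for the repeat entered the main fit. The deposited replicate numbers mark repeats that each held both genotypes, so they pair the libraries. The log2 difference of repeat 2 minus repeat 1 correlated between the genotypes (r = 0.38 to 0.65 over genes in main clusters). DESeq2 1.42.0 was an alternative. Simulated counts were used to check the fits. Marker classes needed at least 2 genes of a list. The classes were endothelial or mural, fibroblast and microglial.

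Named pairs were those called, plus for each gene the main cluster and the sub-cluster with the smallest unadjusted p. The members and lists were chosen with earlier results of these data known. Gene positions came from GENCODE on GRCm38. Depth was 47260127 to 59112785 UMIs per library, but 616935 to 858073 in the microglia and macrophage cluster, so that at 10 CPM a gene there rested on few UMIs. Pools of mice are the replicates, and intervals on counts cover counting error only.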

Additional observations from a re-analysis of the deposited data

Results flagged for a closer look

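A pair of levels stood out in nuclei that the comparisons did not use. In the 36 nuclei named VLMC of the TRα1+m library of repeat 2, Igfbp2 stood at 678 CPM (66 of 97315 UMIs, 95% exact Poisson interval 525 to 863 CPM), above the highest wild-type level of a whole tested cell type (110 CPM). That level was taken over the whole microglia and macrophage cluster. Its wild-type nuclei with fibroblast genes stood at 638 and 814 CPM. Insr stood at 175 CPM in the 36 nuclei named VLMC (17 UMIs, 102 to 280 CPM), a little above the highest wild-type level of a whole tested cell type (163 CPM), which lay within its interval. The authors used Igfbp2 to name the VLMC sub-cluster, so that its high level there was fixed by the annotation. Igfbp2 was found in 28 of the 36 nuclei, with at most 5 UMIs in any. In the same nuclei Igf1r was at 10.3 CPM (1 UMI, 0.260 to 57.3 CPM), against 316 CPM in the astrocytes of that library, and Igfbp5 at 30.8 CPM (3 UMIs, 6.36 to 90.1 CPM) against 113 CPM. Of the 39 nuclei of this name 0 held 2 or more fibroblast genes and 39 held 2 or more astrocyte genes. The wild-type libraries contributed 0 and 1 such nuclei, so these levels have no comparison between genotypes.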

How the results depend on the processing

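No member was called in any cluster under RLE factors, DESeq2, no filter on low counts, the bias-adjusted fit or sums without vascular nuclei. Leaving out a library gave 0 to 1 calls among the members in main clusters and 0 in sub-clusters, and among the other pathway genes 0 to 1 and 0 to 2, with the lone library of an arm assumed to vary like the others. The call of a member was Igf1 in the microglia and macrophage cluster, without the TRα1+m library of repeat 1. With the replicate block, that is with libraries paired by repeat, 2 members were called in main clusters (Igfbp2 in astrocytes, Igfbp5 in the microglia and macrophage cluster) and 1 in a sub-cluster (Igf1r, MCH), and the other pathway genes gave 3 and 2. Of all genes the block called 1.28% in astrocytes, 0.335% in the microglia and macrophage cluster, 4.35% in oligodendrocytes and 0.896% in the MCH sub-cluster. Its share over all clusters together is not given. The block changed no other call of a member. A further setting, chosen after seeing the data, left out nuclei with at least 2 vascular or at least 2 fibroblast genes. In the microglia and macrophage cluster it also left out nuclei with fewer than 2 microglial genes. In that setting the replicate block called 0 members, and of the other pathway genes 2 in main clusters and 2 in sub-clusters. The share of all genes called in it is not given. With the block, Igf1r in the MCH sub-cluster then differed by 0.28, against 0.85 over all nuclei. Igfbp2 in astrocytes (1.065 against 1.041) and Igfbp5 in the microglia and macrophage cluster (−0.799 against −0.803) lost the call with differences of nearly the same size. For Igfbp2 the fibroblast rule removed none of the nuclei named VLMC, and in astrocytes proper the difference was negative, as given above. For Igfbp5 the nuclei that stayed held 6 UMIs in the TRα1+m library of repeat 2, against 25 to 27 in each other library. Between repeats DESeq2 called 2 members in place of 8. Insr in the MCH sub-cluster turned from 0.36 to −0.0069 without vascular and fibroblast nuclei and to −0.026 with the block added. Igfbp2 in the astrocyte cluster ranged from −0.22 (without the TRα1+m library of repeat 2) to 1.86 (without the wild-type library of repeat 2). With microglial nuclei only, the level of Igfbp2 in the microglia and macrophage cluster was 2.71 CPM and that of Igfbp5 45.2 CPM. Without vascular nuclei the level in the MCH sub-cluster went from 746 to 163 CPM for Igf1r and from 172 to 96.8 CPM for Insr. The levels of the 6 members beside Igfbp2 and Igfbp5, each in the main cluster where it was highest, moved by less than the spread between libraries, also with thinned nuclei. For Igf1 that spread was wide. Its level in the microglia and macrophage cluster went from 25.8 ± 19.7 CPM to 10.8 ± 3.85 with microglial nuclei only. Another scaling moved the median log2 difference of all genes to at most 0.02 from 0.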

Other observations

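Neurons_2, of which 852 of 864 nuclei came from the TRα1+m library of repeat 2, carried the members at their own levels. In that library Igf1r stood at 234 CPM in Neurons_2 and 150 in Neurons_1, Irs4 at 8.53 and 15.9, and Igf1 at 4.27 and 12.2. Insr was at 96.7 and 113 CPM, and Irs1 at 46.6 and 34.8. The cluster named Non-neuronal cells, in which 204 of 207 nuclei held at least 2 astrocyte genes and 198 at least 2 oligodendrocyte genes, stood at 157 ± 27.8 CPM for Insr, 276 ± 45.0 for Igf1r and 55.0 ± 27.4 for Irs1 (SD, n = 4 libraries), and held 0 Igf1 UMIs. These are values of clusters that entered no comparison.

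In the TRα1+m library of repeat 2, whose Igf1 level in the microglia and macrophage cluster was 55.1 CPM, the Igf1 UMIs lay mostly outside nuclei with microglial genes. Of the 34 UMIs, 16 were in nuclei with none of the 3 marker classes and 12 in nuclei with vascular genes.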
